A study of Homo sapiens with 16 samples.

Results

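Metallothioneins are small, cysteine-rich proteins that bind zinc and copper. When free zinc rises, the zinc-finger factor MTF1 binds metal response elements in DNA and switches on metallothionein genes together with SLC30A1, which encodes the zinc transporter ZnT1 of the plasma membrane that moves zinc out of the cell. Glucocorticoids, oxidants and copper also act on metallothionein genes. The genes described here are 7 metallothionein genes (MT1A, MT1E, MT1F, MT1G, MT1M, MT1X and MT2A), the regulator MTF1 and the exporter SLC30A1, chosen as a list of symbols and matched to the Ensembl identifiers of the count tables. All 9 were found among 60676 identifiers.

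They were measured by stranded total RNA-seq in 16 libraries of A101D and MeWo, human melanoma cell lines that the submitters describe as methionine dependent and as methionine independent, with 8 libraries per line. All cells were grown in a DMEM without methionine or cystine to which dialyzed serum, glutamine, pyruvate and 150 µM cystine were added back, with either 200 µM methionine or 200 µM homocysteine. No label says which library had which medium, so 4 groups are used, each line's replicates 1-4 and replicates 5-8. The replicate numbers are not labelled as a treatment, and no label ties them to a medium, a day or a batch. Differences between replicate groups can therefore not be told apart from any of these. The labels do not state separate cultures either, so p-values measure the spread between these libraries, which may be technical.

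Total counts ran from 28910881 to 38961862 per library in A101D and from 31217443 to 38722489 in MeWo. Levels are CPM, counts per 1000000 counts, on library sizes scaled by the trimmed mean of M-values (TMM). The melanocyte lineage markers PMEL, DCT, MLANA, MITF, SOX10 and S100B were at 16.2 CPM or more in every library, while the pigment enzymes TYR and TYRP1 stayed at or under 1.72 CPM in A101D. The summed level of 11 markers of leukocytes, epithelia, endothelium and fibroblasts was 3.49 to 3.86 CPM in A101D replicates 1-4 and 7.57 to 8.76 CPM in A101D replicates 5-8. It was 72.1 to 81.3 CPM and 75.2 to 84.1 CPM in the corresponding MeWo groups, where the proteoglycan gene LUM made up most of it (72.9 ± 4.09 CPM in replicates 1-4, SD, n = 4). The leukocyte gene PTPRC had between 9 and 24 counts summed over each group and CD3E between 0 and 12.

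The 7 metallothionein genes lie in a 76.0 kb cluster on chromosome 16 (GRCh38, GENCODE v29). MT2A is at chr16:56608199-56609497, MT1E at chr16:56625475-56627112, MT1M at chr16:56632233-56633986, MT1A at chr16:56638666-56640087, MT1F at chr16:56657694-56660698 and MT1X at chr16:56682424-56684196, all on the plus strand. MT1G is at chr16:56666731-56668065 on the minus strand. MTF1 is at chr1:37809567-37859620 and SLC30A1 at chr1:211571568-211578742, both on the minus strand. All 9 are annotated as protein coding.

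MTF1 is known to recognise short DNA letters called metal response elements, and the stretches upstream of the start are shown for the genes in which these letters were found. RefSeq promoters (GRCh38.p14) matched 4 of the genes: MT1X, MT2A, MTF1 and SLC30A1. The letters TGCACNC or TGCGCNC, the core of the metal response element, were searched on both strands in the 250 bases before each RefSeq start. MT2A held 7 matches, MT1X 4, SLC30A1 1 and MTF1 0. Of 35116 RefSeq promoters, 24.8% held at least 1 match, 0.37% at least 4 and 0.031% at least 7. Capitals mark the matches in the sequences below, which read 5′ to 3′ on the strand of the gene. For MT1X the stretch before the GENCODE start, chr16:56682220-56682423, holds all 4 matches. For SLC30A1 all 250 bases, chr1:211579162-211579411 on the minus strand, are given.
MT1X: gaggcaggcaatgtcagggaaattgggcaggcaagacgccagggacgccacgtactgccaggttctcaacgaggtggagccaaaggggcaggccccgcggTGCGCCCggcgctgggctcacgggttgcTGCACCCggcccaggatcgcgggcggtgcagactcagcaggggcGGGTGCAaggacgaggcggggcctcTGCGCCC
SLC30A1: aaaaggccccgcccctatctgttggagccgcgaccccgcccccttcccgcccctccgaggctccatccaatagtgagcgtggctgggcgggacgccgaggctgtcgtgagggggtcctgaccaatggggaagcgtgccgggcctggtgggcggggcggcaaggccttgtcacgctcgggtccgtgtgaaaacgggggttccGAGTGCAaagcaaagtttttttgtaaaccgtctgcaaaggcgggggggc

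The single match of SLC30A1 lay 43 to 49 bases before the RefSeq start, which is 419 bases upstream of the GENCODE v29 start. The MT1X matches lay between 47 and 150 bases before its start. GENCODE v29 starts MT2A 385 bases upstream of RefSeq, so the window of MT2A falls in an annotated exon, and short stretches around 3 of its 7 matches are shown. They are at chr16:56608334-56608352, chr16:56608488-56608510 and chr16:56608522-56608544.
MT2A, 240 to 246 bases before the start: ccgcTGCACCCagcccctt
MT2A, 82 to 88 bases before the start: cgcggggcGTGTGCAggcagcgc
MT2A, 48 to 54 bases before the start: ggggctttTGCACTCgtcccggc

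Across the cluster, MT2A was the predominant metallothionein in both lines, MT1X and MT1F were low, and the other 4 genes were at or near 0. MT1A had 0 counts in all 16 libraries. MT1E had 1 count and MT1M 2 counts, all in MeWo replicate 1. MT1G had 6 counts over the 8 A101D libraries and 12 over the 8 MeWo libraries, a MeWo to A101D ratio of 2.01 with a 95% counting interval of 0.697 to 6.52. A count of 0 over the 8 libraries of a line allows up to 3 counts, or 0.0111 CPM in A101D and 0.011 CPM in MeWo. Such intervals and limits cover counting error only. These 4 genes did not pass the filter on low counts, which asked for 15 counts over all libraries and for 0.298 CPM in 4 or more of them. With no such filter, MT1E, MT1G and MT1M were called in 0 of the 5 comparisons below by limma-voom (adjusted p from 0.307 to 0.971). The other 5 genes passed the filter, among 21569 genes tested.

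**Figure D1:**
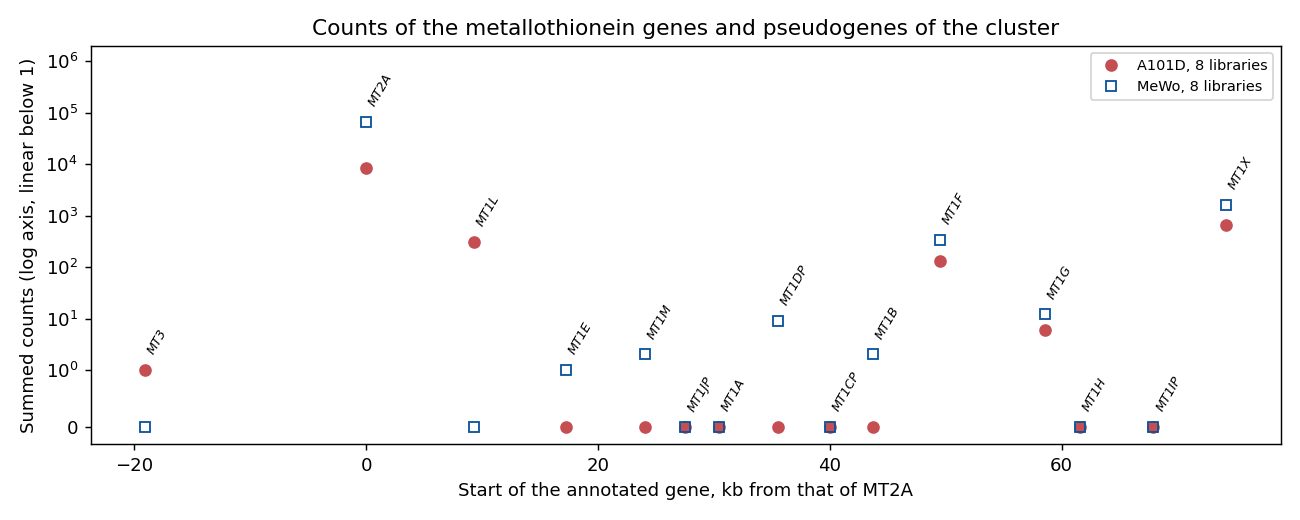
Counts summed over the 8 libraries of each line (vertical axis, logarithmic above 1 and linear below) for the metallothionein genes and pseudogenes of the chromosome 16 cluster, placed by the distance in kb between the start of each annotated gene and that of MT2A. MT2A stands highest in both lines (8592 counts in A101D and 67475 in MeWo), and MT1L has 314 counts in A101D and 0 in MeWo.

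The cluster also holds 1 annotated pseudogene that went the other way. MT1L had 314 counts in A101D, 1.15 ± 0.23 CPM over its 8 libraries, and 0 in MeWo, at least 104-fold higher in A101D when set against 3 counts over the 8 MeWo libraries. It was the single gene that passed the low-count filter among 14 further metallothionein genes and pseudogenes listed. MT1L passed that filter only through A101D, where it is high. Its limma-voom calls between lines (lower in MeWo in both sets of replicates) therefore add no support to this difference. MT1H, MT1JP, MT1CP and MT1IP had 0 counts in both lines.

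Paralogues can share reads, so the annotated transcripts were compared. Of the distinct 50-base stretches of MT1X, 18.3% also occurred in transcripts of other genes, as did 16.5% for MT1G, 9.87% for MT1M, 7.1% for MT1E, 5.76% for MT1A, 3.02% for MT2A and 1.22% for MT1F. MTF1 shared 0.64% and SLC30A1 0%. Part of the MT1X overlap is with ENSG00000259827, a transcript on the same strand that overlaps MT1X and had 0 counts. How reads that fit several genes were counted is not given in the sources used here, so the MT1X and MT1G levels are uncertain to that extent.

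MT2A, a metallothionein active in most tissues, was several-fold higher in MeWo than in A101D, and in A101D it was lower in replicates 5-8 than in replicates 1-4. In A101D replicates 1 to 4 it was at 42.7, 42.3, 41.8 and 43.3 CPM, and in replicates 5 to 8 at 21.9, 19.8, 23.3 and 21.6 CPM. In MeWo it was at 256, 269, 255 and 252 CPM in replicates 1 to 4 and at 266, 215, 247 and 234 CPM in replicates 5 to 8. Every MeWo library was above every A101D library, the A101D groups did not overlap, and the MeWo groups did. Group means were 42.5 ± 0.668 and 21.6 ± 1.45 CPM in A101D and 258 ± 7.68 and 241 ± 21.3 CPM in MeWo (SD, n = 4 each). In bulk RNA, fewer cells expressing a gene and less RNA per cell cannot be told apart.

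MT1X, a metal-inducible MT1 isoform, followed the same order of groups at a far lower level. It was at 3.27, 3.91, 3.45 and 3.27 CPM in A101D replicates 1 to 4 and at 0.961, 1.39, 1.60 and 1.62 CPM in replicates 5 to 8. In MeWo it was at 6.61, 6.25, 6.26 and 5.08 CPM and then at 6.19, 6.28, 5.45 and 5.59 CPM. The A101D groups were separate from each other and from MeWo, and the MeWo groups overlapped.

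MT1F, another MT1 isoform, rested on 8 to 55 counts per library. It was at 0.973, 0.509, 0.581 and 0.549 CPM in A101D replicates 1 to 4 and at 0.511, 0.258, 0.229 and 0.350 CPM in replicates 5 to 8. In MeWo it was at 1.61, 1.13, 1.08 and 1.05 CPM and then at 1.69, 1.05, 1.14 and 1.38 CPM. All MeWo libraries were above all A101D libraries, and replicate 5 of A101D overlapped replicates 1 to 4 of that line.

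MTF1, the zinc-sensing factor, was lower in MeWo. It was at 49.3, 52.2, 49.6 and 47.0 CPM in A101D replicates 1 to 4, and at 54.8, 56.4, 51.8 and 50.1 CPM in replicates 5 to 8, with overlap between these groups. In MeWo the 8 libraries lay between 17.95 and 20.04 CPM.

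SLC30A1, the zinc exporter, had the pattern opposite to MT2A. It was at 111, 120.0, 106 and 114 CPM in A101D replicates 1 to 4 and at 282, 271, 278 and 239.6 CPM in replicates 5 to 8. In MeWo it was at 21.2, 23.8, 21.2 and 20.6 CPM and then at 21.7, 22.6, 22.0 and 22.7 CPM. Every A101D library was above every MeWo library, and the A101D groups did not overlap.

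**Figure D2:**
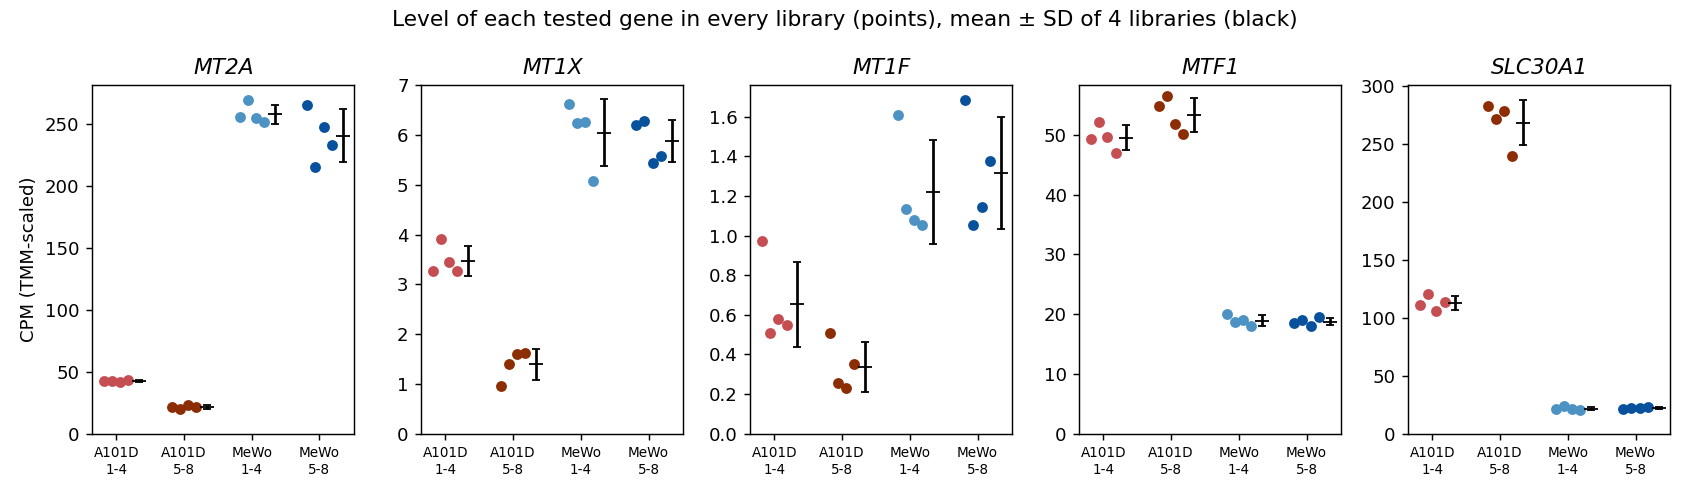
Level of MT2A, MT1X, MT1F, MTF1 and SLC30A1 in CPM on TMM-scaled library sizes (vertical axes from 0, scaled per gene) in every library of the 4 groups. Points are libraries and black bars the mean ± SD of 4 libraries; SLC30A1 stands highest in A101D replicates 5-8 (268 ± 19.4 CPM), where MT2A is lowest (21.6 ± 1.45 CPM).

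Per kb of annotated exon length, the order of the genes differed between groups. In A101D replicates 1-4, MT2A led with a level of 32.7 CPM per kb, ahead of SLC30A1 at 20.6, MTF1 at 6.17, MT1X at 1.96 and MT1F at 0.346 CPM per kb. In A101D replicates 5-8, SLC30A1 led with 48.9 CPM per kb, ahead of MT2A at 16.7, and the lower order was as before. In MeWo replicates 1-4, MT2A was at 199 CPM per kb, followed by SLC30A1 at 3.97, MT1X at 3.41, MTF1 at 2.36 and MT1F at 0.645 CPM per kb, and replicates 5-8 gave the same order. Neighbours in these orders did not overlap between libraries down to MT1F and MT1G, and MT1G overlapped the genes at 0. MT1X was thus below MTF1 in A101D and above it in MeWo on this scale.

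MeWo differed from A101D in all 5 tested genes in replicates 1-4, with the 3 metallothioneins higher and MTF1 and SLC30A1 lower. This was tested with limma-voom across all genes, two-sided, with Benjamini-Hochberg adjusted p-values and a threshold of 0.05. Of all genes tested, 79.1% were called in that comparison and 72.1% did not overlap between the groups' libraries, so a call or a lack of overlap alone does not set the 5 genes apart. MT2A was 6.06-fold higher in MeWo (95% interval 5.65 to 6.49, adjusted p = 4.98e-37). SLC30A1 was 5.19-fold lower (4.8 to 5.62, adjusted p = 5.27e-34) and MTF1 2.61-fold lower (2.43 to 2.81, adjusted p = 2.63e-26). MT1X was 1.74-fold higher (1.48 to 2.04) and MT1F 1.85-fold higher (1.32 to 2.59). With upper-quartile scaling, which moved the median log2 fold change of all genes from -0.09 to 0.41, the log2 fold change was 1.30 for MT1X (0.80 with TMM), 1.38 for MT1F (0.89) and -0.89 for MTF1 (-1.39). The log2 fold change of MT2A was above those of 96.1% of the genes tested, and that of SLC30A1 was above 11.7%.

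In replicates 5-8 the same 5 genes differed in the same directions, against 84.1% of all genes called (40.5% higher and 43.5% lower) and 79.0% not overlapping. MT2A was 11.1-fold higher in MeWo (10.3 to 12, adjusted p = 3.84e-40) and SLC30A1 12-fold lower (11.1 to 12.9, adjusted p = 1.25e-41). MT1X was 4.23-fold higher (3.45 to 5.19), MT1F 3.91-fold higher (2.65 to 5.76) and MTF1 2.83-fold lower (2.63 to 3.04). In both comparisons the fibroblast marker LUM was also higher in MeWo (74.9 ± 3.73 against 2.05 ± 0.414 CPM in replicates 5-8). Of the 6 tested markers of other cell types, 2 were higher and 4 lower in MeWo in replicates 5-8, against 40.5% and 43.5%. The 4 lower were KRT14, CDH5, PECAM1 and CDH1. In replicates 1-4, 2 of the 6 were higher and 2 lower, against 35.8% and 43.3% of all genes. KRT14 passed the low-count filter only through A101D (at most 0.162 CPM in MeWo). DCN passed it only through MeWo (at most 0.232 CPM in A101D). PECAM1 and CDH5 were at or under 0.351 CPM in MeWo, close to the 0.298 CPM of the filter. The 6 are therefore not a fair sample to set against all genes in either comparison. The part of these markers in the differences between lines was not tested.

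Within A101D, replicates 5-8 had lower metallothionein and higher SLC30A1 levels than replicates 1-4. MT2A was 1.97-fold lower (log2 fold change -0.98, SE 0.06, adjusted p = 2.59e-18) and MT1X 2.50-fold lower (-1.32, SE 0.16, adjusted p = 6.51e-10). MT1F was 1.98-fold lower with overlapping libraries (-0.98, SE 0.31, adjusted p = 0.00499). SLC30A1 was 2.38-fold higher (1.25, SE 0.04, adjusted p = 4.11e-27). All 5 genes were called, against 65.3% of all genes tested, and 3 of the 5 did not overlap, against 59.9%. By size, the log2 fold change of MT1X was above 4.09% of the genes tested, that of MT2A above 8.01% and that of SLC30A1 above 93.7%.

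MTF1 was 1.08-fold higher in A101D replicates 5-8 (1.01 to 1.15, adjusted p = 0.0366), and the size and call of this small difference moved with the processing. The log2 fold change of 0.11 became 0.27 with total counts (adjusted p = 1.07e-06), 0.18 with median-of-ratios scaling (adjusted p = 0.00071) and 0.17 without A101D replicate 2 (adjusted p = 0.00316). The adjusted p was 0.26 with upper-quartile scaling, 0.072 with no low-count filter and 0.065 with limma-trend, and the call was also lost without A101D replicate 1, 3, 4, 5 or 6, where the log2 fold change was between 0.08 and 0.11. In this comparison 6 of 6 tested markers of other cell types, of 11 listed, were higher in replicates 5-8, against 29.6% of all genes. Summed levels of the 11 are given above. PECAM1 passed the low-count filter through replicates 5-8, where it was high (0.323 to 0.661 CPM, against 0.145 to 0.244 CPM in replicates 1-4). DCN rested on 16 counts in replicates 5-8 and 1 in replicates 1-4. The 6 are therefore not a fair sample to set against all genes. The part of these markers in the differences of the zinc genes was not tested.

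Within MeWo, 0 of the 5 genes were called between replicates 5-8 and 1-4 by limma-voom, against 13.1% of all genes tested (4.59% higher and 8.51% lower), and all 5 overlapped. At an unadjusted p under 0.05, 1 of the 5 (MT2A) passed, and limma-trend also called 0. The log2 fold change of MT2A was -0.11 (95% interval -0.19 to -0.02, adjusted p = 0.0965), and MT2A passed the threshold with upper-quartile scaling (adjusted p = 0.0348) and without MeWo replicate 5 (adjusted p = 0.0081). SLC30A1 was at 0.04 (-0.09 to 0.17), MTF1 at -0.01 (-0.13 to 0.11), MT1X at -0.04 (-0.24 to 0.16) and MT1F at 0.09 (-0.31 to 0.49) on the log2 scale.

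The difference between replicate groups was itself different in the lines for 4 of the 5 genes, against 48.5% of all genes tested (27.6% higher and 20.8% lower). Taken as the MeWo change minus the A101D change on the log2 scale, it was 0.87 for MT2A (SE 0.07, adjusted p = 1.83e-13), 1.28 for MT1X (SE 0.19, adjusted p = 1.30e-07) and -1.21 for SLC30A1 (SE 0.08, adjusted p = 2.50e-17). For MT1F it was 1.08 (SE 0.37, adjusted p = 0.0131), and without A101D replicate 1 it was 0.85 (adjusted p = 0.0647). For MTF1 it was -0.12 (-0.27 to 0.03, adjusted p = 0.202), and it passed the threshold with median-of-ratios scaling (-0.20, adjusted p = 0.0311) and with total counts (-0.22, adjusted p = 0.0114).

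**Figure D3:**
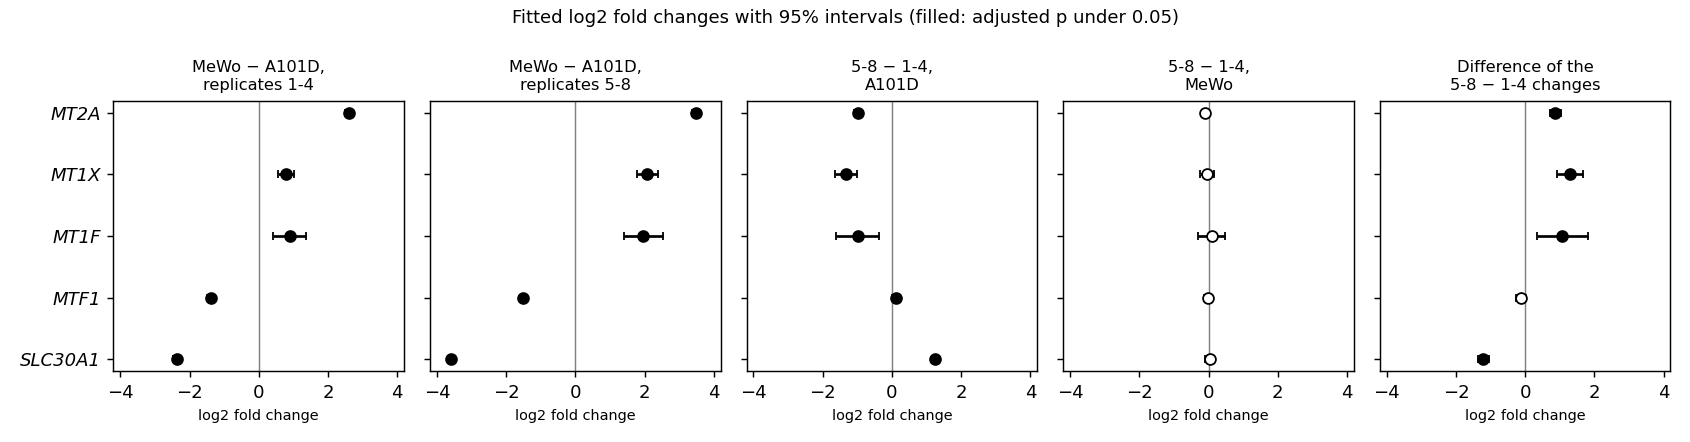
Fitted log2 fold changes (horizontal axes) with 95% intervals for the 5 tested genes in the 2 comparisons between lines, the 2 between replicate groups within a line, and the difference of the latter between lines. Filled points have an adjusted p under 0.05; in A101D the metallothioneins lie left of 0 and SLC30A1 right of it, while in MeWo all 5 points are open and near 0.

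Ratios between genes within a library do not depend on the scaling of libraries, and they were compared between groups with 20 two-sided exact permutation tests over 4 against 4 libraries, for which the smallest possible p is 0.0286 (0.044 after Benjamini-Hochberg adjustment over the 20). SLC30A1 had 2.65 ± 0.133 counts per MT2A count in A101D replicates 1-4 and 12.4 ± 1.15 in replicates 5-8. In MeWo it had 0.0841 ± 0.00298 and 0.0931 ± 0.0101 counts per MT2A count. The 3 comparisons that involve A101D reached that smallest exact p, with no overlap, and the comparison within MeWo did not (exact p = 0.229, adjusted 0.286). In those 3 comparisons MT2A and SLC30A1 were each already separate, in opposite directions. The separation of their ratio was therefore fixed in advance and adds no support. Ratios of genes outside the list were not tested, so no share over all genes can be set beside these results.

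SLC30A1 had 2.27 ± 0.117 and 5.03 ± 0.283 counts per MTF1 count in A101D replicates 1-4 and 5-8, and 1.15 ± 0.0914 and 1.19 ± 0.0233 in MeWo. MT1X had 8.17 ± 0.784 and 6.45 ± 1.40 counts per 100 MT2A counts in A101D and 2.34 ± 0.242 and 2.46 ± 0.316 in MeWo. For both ratios the comparisons between lines and within A101D reached the smallest exact p, and those within MeWo gave an exact p of 0.457 and 0.6. The MT1X ratio differed by -1.72 within A101D and by -1.03 without A101D replicate 5, the lowest at 4.39 (two-sided exact p = 0.0571, the smallest that 3 against 4 libraries allow, an alternative chosen after seeing the data), while the other replicates 5-8 reached 7.48 and replicates 1-4 began at 7.54. MT1X counts thus made up a smaller share relative to MT2A in MeWo although both genes were higher there.

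MT1F had 1.53 ± 0.5 and 1.56 ± 0.576 counts per 100 MT2A counts in A101D, which overlapped (exact permutation p = 0.886), and 0.473 ± 0.104 and 0.543 ± 0.082 in MeWo. MT2A made up 91.1% ± 0.553 and 92.5% ± 0.874 of the counts of the 7 metallothionein genes in A101D (exact permutation p = 0.0571, adjusted 0.0816) and 97.2% ± 0.314 and 97.1% ± 0.304 in MeWo. Between lines, MT2A's share and the MT1F ratio reached the smallest exact p in each set of replicates.

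**Figure D4:**
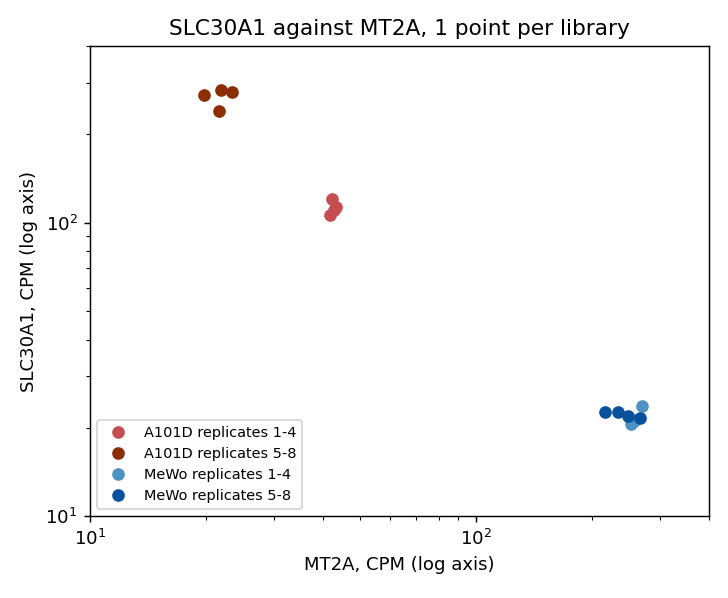
SLC30A1 against MT2A, both in CPM on logarithmic axes, with 1 point per library coloured by group. The A101D groups lie apart at upper left, replicates 5-8 with more SLC30A1 and less MT2A than replicates 1-4, and the 8 MeWo libraries form 1 cluster at lower right between 20.6 and 23.8 CPM of SLC30A1.

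The other transporters of zinc were described from a list of 9 further SLC30 genes, a family that mostly moves zinc out of the cytosol. A list of 14 SLC39 genes, which move zinc in, was described as well. The SLC30 genes were mostly lower in MeWo. In replicates 1-4, 1 of 8 tested was higher and 7 were lower, with a median log2 fold change of -1.32 against -0.09 over all genes, of which 35.8% were called higher and 43.3% lower. SLC30A10, a manganese and zinc transporter of the cell surface, was at 0.0927 ± 0.0292 CPM in MeWo and 1.66 ± 0.285 CPM in A101D. It passed the low-count filter only through A101D, where it was high. SLC30A8 had the lowest log2 fold change, at -4.60, with a mean under 1 CPM, so it too passed that filter only through A101D. Both genes are in the counts and medians of both sets of replicates, which lean on them to that extent. SLC30A2, a vesicular zinc transporter, was at 0.549 ± 0.127 against 6.78 ± 0.697 CPM and SLC30A4 at 4.87 ± 0.508 against 17.5 ± 1.30 CPM. SLC30A9 was higher in MeWo, by 0.17 on the log2 scale. In replicates 5-8 the counts were again 1 higher and 7 lower, against 40.5% and 43.5% of all genes. The median was -1.4, against -0.03 over all genes.

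Within A101D the SLC30 genes went in both directions between the replicate groups. In replicates 5-8, 1 of the 8 tested was higher and 4 were lower, with a median log2 fold change of -0.05, the same as over all genes to 2 decimals, and 29.6% and 35.8% of all genes were called higher and lower. SLC30A10 was at 2.25 ± 0.190 CPM in replicates 5-8 and at 1.66 ± 0.285 CPM in replicates 1-4 (adjusted p = 0.00997). SLC30A2 was lower (3.35 ± 0.258 against 6.78 ± 0.697 CPM), as were SLC30A7, which supplies zinc to the Golgi (89.3 ± 3.21 against 130.5 ± 4.06 CPM), and SLC30A9 (84.2 ± 2.75 against 112 ± 4.11 CPM). SLC30A1 itself, at a log2 fold change of 1.25, is not in this list. In MeWo 2 of 8 were lower, against 8.51% of all genes, SLC30A7 by 0.21 and SLC30A6 by 0.16 on the log2 scale.

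Among the 13 tested importers, 4 were higher and 5 lower in MeWo in replicates 1-4, against 35.8% and 43.3% of all genes, with a median log2 fold change of 0.04. In replicates 5-8, 5 were higher and 7 lower, against 40.5% and 43.5%, with a median of -0.41 where that of all genes was -0.03. In replicates 1-4, SLC39A6, a plasma membrane zinc importer, was at 614 ± 38.3 CPM in MeWo and 202 ± 10.4 CPM in A101D. Also in replicates 1-4, SLC39A8 was higher in MeWo (44.6 ± 2.31 against 27.9 ± 1.73 CPM). SLC39A12, SLC39A4 and SLC39A1 were lower there, by 2.35, 1.34 and 1.02 on the log2 scale.

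In A101D, 3 of the 13 importers were higher and 5 lower in replicates 5-8, close to the shares of all genes (29.6% and 35.8%). SLC39A3 was at 40.6 ± 0.536 against 24.9 ± 1.25 CPM, SLC39A9 at 206 ± 3.83 against 167 ± 1.67 CPM and SLC39A14, an importer of zinc, iron and manganese, at 294 ± 4.09 against 248 ± 9.38 CPM. SLC39A1, SLC39A8 and SLC39A4 had the lowest log2 fold changes of those called, at -0.54, -0.51 and -0.42. In MeWo 2 of 13 were lower, against 8.51% of all genes, SLC39A8 by 0.18 and SLC39A7 by 0.13.

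**Figure D5:**
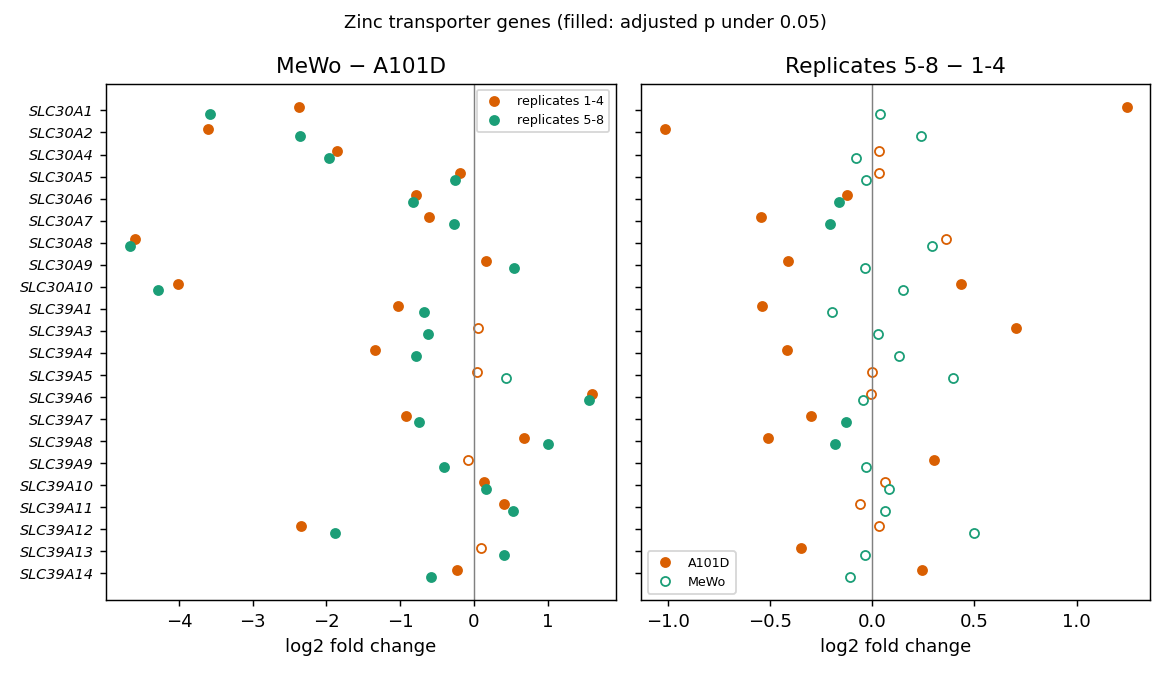
Log2 fold changes (horizontal axes) of SLC30A1 and of the tested genes of the SLC30 and SLC39 lists, between lines in each set of replicates (left) and between replicate groups within each line (right). Filled points have an adjusted p under 0.05; SLC30A1 lies farthest right in the comparison within A101D, at 1.25.

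The genes whose pattern over the libraries was most like that of MT2A, MTF1 and SLC30A1 were ranked by Pearson's r of log2 CPM over the 16 libraries among 10133 genes with a mean of at least 10 CPM. All points share the difference between lines, so r near 1 is common and serves as a description. For MT2A these were PIK3CD, a phosphoinositide kinase subunit (r = 0.99903), RFLNB (0.999) and TBC1D16 (0.99895). PIK3CD was at 31.6 and 16.3 CPM in the A101D groups and at 149 CPM in each MeWo group. For SLC30A1 they were TP53RK, TIGAR and TMTC2 (r from 0.99871 to 0.99881). TIGAR, a regulator of glycolysis, was at 21.0 and 61.9 CPM in A101D and at 3.26 and 3.4 CPM in MeWo. For MTF1 they were CRCP, AGK and ZFP57 (r from 0.99746 to 0.99831). CRCP was at 82.8 and 86.7 CPM in A101D and at 41.8 and 40.9 CPM in MeWo, and ZFP57 at 25.1 and 43.4 CPM in A101D and 0.0 CPM in MeWo.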

How the data were processed

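The authors deposited 1 table per cell line that holds whole-number counts per gene, not normalized, with the Ensembl identifier and the count in the same cell; per the file headers, these other-format columns come from sorted alignments, and identifier and count were split before use. Per the submitters' processing notes, reads were processed with Trimmomatic 0.39-1, STAR 2.7.1a and featureCounts 2.0.0 on GRCh38; the annotation release is not given in the sources used here, nor is the strand setting, so overlapping and antisense genes may share counts. Columns were matched to samples by line and replicate number. Of 60676 identifiers, 60357 had a symbol and 58503 an exon length in GENCODE v29, which also gave positions. Total counts ran from 28910881 to 38961862.

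Library sizes were scaled by TMM (trims of 30% on ratios and 5% on means, factors 0.942 to 1.08). The 21569 genes tested had 15 counts or more over all libraries and reached 0.298 CPM (10 counts at the median depth) in 4 or more of them. All 4 groups entered 1 limma 3.58.1 voom fit in R 4.3.3 with robust empirical Bayes moderation, without covariates; the other steps used Python 3.11.15 with SciPy 1.17.1. Quasi-likelihood count tests were not run, because these columns did not pass as counts in a check of units. Tested on simulated data for the line difference in replicates 1-4 (20450 to 20516 genes, 12 draws, 200 genes changed 2-fold), the fit recovered 96.1% of changed genes, and on average 4.61% of its calls were on unchanged genes (1.02% to 8.74% per draw). A first test on 1 draw had exceeded the 8% limit set for such calls, and the limit was then applied to the mean of the 12 draws, that draw included. The simulation changed few genes, up and down in equal number, with the same assumed extra spread for all genes. In the data 79.1% of genes were called in that comparison, so the simulated rates do not carry over to it.

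Alternatives were 3 other scalings, 2 other filters, limma-trend, a replicate block and each library left out, for the ratios chosen after seeing the data. Named genes were all 9 listed genes, the 3 most correlated with MT2A, MTF1 and SLC30A1, and up to 3 called genes per direction of each list with a mean of at least 1 CPM. The genes, lists and replicate groups were chosen with earlier results of these data known. Libraries of the same group differed by more than sampling noise. Protein sequences were not used here.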

Additional observations from a re-analysis of the deposited data

Results flagged for a closer look

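MT1F was high in replicate 1 of both lines. Among A101D replicates 1-4 the highest library stood at 0.973 CPM (replicate 1) and the others at 0.509 to 0.581 CPM. Among MeWo replicates 1-4 the highest stood at 1.61 CPM (replicate 1) and the others at 1.05 to 1.13 CPM. In that MeWo library MT1F also reached 0.628 counts per 100 MT2A counts, against 0.418 to 0.423 in the other 3. Each of these libraries lay far from the rest of its group by Dixon's criterion for 4 libraries. In 40 groups checked, 3 were picked out, and chance picks out about 1 in 20, or 2, if the groups are independent. They are not, because levels and ratios use the same counts, and both MeWo cases rest on the same MT1F counts.

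In 4 of the 5 tested genes the difference between replicates 5-8 and 1-4 was not the same in MeWo and A101D by limma-voom. This was so for 48.5% of all genes tested. As the MeWo change minus the A101D change on the log2 scale, it was 0.87 for MT2A, 1.28 for MT1X, 1.08 for MT1F and -1.21 for SLC30A1, with the adjusted p-values given with the results. Without A101D replicate 1 the value for MT1F was 0.85 (adjusted p = 0.0647).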

How the results depend on the processing

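The counts of genes called in the 5 comparisons stayed within 1.5 times their value in all 113 alternatives. With each replicate left out in turn they ran from 16589 to 17037 and from 17378 to 18140 between lines (replicates 1-4 and 5-8), from 13122 to 14237 in A101D, from 1940 to 3756 in MeWo and from 9880 to 10528 for the difference between lines. Of 565 alternative values of the 5 tested genes, 545 kept their direction and side of the threshold, 9 lost a call, 4 gained one and 7 changed sign. The lost and gained calls are those of MTF1, MT2A and MT1F given with the results, and their cause was not tested. All of these sign changes were in the uncalled comparison within MeWo: SLC30A1 was at -0.00514 with upper-quartile scaling; MT1X was at 0.0155 and MTF1 at 0.0457 with total counts; and with each replicate left out in turn, MT1F ran from -0.019 (without MeWo replicate 5) to 0.238, MT1X from -0.124 to 0.00993 (without replicate 1) and MTF1 from -0.0365 to 0.0188 (without replicate 1, and also above 0 without replicate 7). Scaling moved the split of all genes into higher and lower calls. Upper-quartile scaling gave 11896 higher and 5914 lower against 7722 and 9331 between lines in replicates 1-4, 12150 and 6487 against 8745 and 9393 in replicates 5-8, and 632 and 2704 against 990 and 1835 in MeWo. Total counts gave 8490 and 5770 against 6375 and 7720 in A101D, 2041 and 1037 against 990 and 1835 in MeWo, and 4857 and 5746 against 5956 and 4497 for the difference between lines. The median log2 fold change of all genes moved from -0.09 to 0.41 and from -0.03 to 0.46 between lines with upper-quartile scaling, and with total counts from -0.05 to 0.11 in A101D and from 0.06 to -0.05 for the difference between lines. Replicate numbers did not pair the libraries: deviations of same-numbered libraries correlated at -0.03 to 0.08, 0 of 8 pairs over 0.1, and 3 of 8 numbers correlated best with their own. With the replicate block, 17174 and 17999 genes were called between lines and 10807 for the difference between lines, against 17053, 18138 and 10453; the block could not be fitted within a line. Counts of 8 to 55 limit MT1F, and MT1A, MT1E, MT1G and MT1M did not pass the low-count filter. Leaving out 1 library each from the ratios between genes, an alternative chosen after seeing the data, moved 1 called difference by over 1.5 times, that of MT1X to MT2A given with the results.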

Other observations

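Lists of genes of copper handling, glucocorticoid and electrophile responses, other inputs known to act on metallothioneins, were described in the same way. Of 10 copper handling genes, 5 were higher and 3 lower in MeWo in replicates 1-4 by limma-voom, against 35.8% and 43.3% of all genes, with a median log2 fold change of 0.11 against -0.09 over all genes. ATP7A, a copper exporter, was at 55.0 ± 4.76 CPM in MeWo and 27.9 ± 3.70 CPM in A101D, and the copper chaperone ATOX1 at 187 ± 11.7 against 129 ± 2.77 CPM (SD, n = 4). In A101D, 3 of the 10 were higher and 4 lower in replicates 5-8, against 29.6% and 35.8% of all genes, and in MeWo 1 was lower, against 8.51%, the copper exporter ATP7B (17.6 ± 0.984 against 21.2 ± 0.969 CPM). Of 7 tested glucocorticoid-responsive genes, 5 were higher and 2 lower in MeWo in replicates 1-4, against 35.8% and 43.3% of all genes. In replicates 5-8, 4 were higher and 3 lower, against 40.5% and 43.5%. TSC22D3 was called in both, at 0.51 and -0.25 on the log2 scale. In replicates 1-4, FKBP5, a chaperone of the glucocorticoid receptor, was at 0.762 ± 0.327 CPM in MeWo and 23.5 ± 0.427 CPM in A101D. In A101D replicates 5-8, 1 of the 7 was higher and 4 were lower, against the shares given above. FKBP5 was at 11.4 ± 0.468 CPM, KLF9 at 81.5 ± 4.52 against 164 ± 7.15 CPM and TSC22D3 at 23.7 ± 1.26 against 10.7 ± 1.11 CPM.

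Of 6 genes of the electrophile response, 5 were higher and 1 lower in MeWo in replicates 1-4 (35.8% and 43.3% of all genes), with the largest log2 fold changes for HMOX1 (1.69) and NQO1 (1.52), and 3 were higher and 2 lower in replicates 5-8 (40.5% and 43.5%). Between replicate groups, 3 were higher and 2 lower in A101D replicates 5-8 (29.6% and 35.8% of all genes). In MeWo replicates 5-8, 0 were higher and 5 lower (4.59% and 8.51%). The change differed between lines in 5 of the 6, all below 0, against 20.8% of all genes. HMOX1, which degrades heme, was at 22.1 ± 1.33 against 14.2 ± 0.658 CPM in A101D and at 35.9 ± 1.76 against 45.7 ± 1.16 CPM in MeWo. Its change differed between the lines by -0.99 on the log2 scale (limma-voom, adjusted p = 1.03e-14).

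A gene chosen after its values were seen is the noncoding ENSG00000260823, annotated 3 bases from the end of MT2A on the opposite strand. It had 11 and 5 counts in the A101D groups and 78 and 120 in the MeWo groups, or 2.01, 1.61, 2.31 and 3.56 counts per 1000 MT2A counts. Whether reads of MT2A were counted for it was not tested.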
